A study of Homo sapiens with 6 samples.

Results

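The blood lineage transcription factors described here are 10 genes, GATA1, GATA2, SPI1, KLF1, TAL1, RUNX1, CEBPA, GFI1B, NFE2 and MYB, taken by symbol from the 20802 genes of the deposited tables. They were chosen with earlier results of these data known. RNA of K562 cells, a human line from a chronic myeloid leukemia in blast crisis with erythroid character, was measured by AmpliSeq, which amplifies 1 short amplicon per gene and counts its reads. The NPMKD group (3 libraries) carried shNPM300, an shRNA against the nucleophosmin gene NPM1, and the shSc group (3 libraries) carried a scrambled shRNA, both delivered by lentivirus in pLKO.1-puro. All cells were selected with 2 µg/mL of puromycin, and the study's methods call the selected cells clones, so shRNA, clone and group cannot be told apart. Nothing in the sources states that the 3 libraries of a group were grown as separate cultures, and p-values therefore speak only to how far these libraries differ among themselves, a spread that may be technical.

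The study kept 5 of the 6 libraries, leaving out 1 of the shSc group by its correlations, and its text does not name that library. Here shSc replicate 3, which correlated least with the others, was taken as the one left out: the tests below use NPMKD replicates 1 to 3 and shSc replicates 1 and 2, and shSc replicate 3 is given beside them. Read totals were 8842344 to 18981902 per library. In shSc replicate 3, 16619 genes had a value above 0, against 13893 to 14600 in the other libraries, and its correlation across genes with the others was 0.839 to 0.879, against 0.922 to 0.972 among the other 5. NPM1 had 1302, 1168 and 655 RPM (reads scaled to a fixed library total) in NPMKD libraries 1 to 3, against 3856 and 2968 RPM in shSc libraries 1 and 2 and 3146 RPM in shSc library 3. The NPM1 level was lower in each NPMKD library than in each shSc library, with a log2 fold change of -1.76 (SE 0.35, limma adjusted p 0.158). All 9 markers of K562 cells were above 1 RPM in the 5 libraries, with a summed level of 10572.5 to 21769 RPM in NPMKD and 11757 to 18721 RPM in shSc. Markers of T and NK cells summed to 19.3 to 93.2 RPM in NPMKD and 56.9 to 88.1 RPM in shSc, those of fibroblasts to 13.9 to 54.8 RPM in NPMKD and 16.1 to 37.5 RPM in shSc, and those of epithelium to 701 to 1548 RPM in NPMKD and 779 to 884 RPM in shSc. These shSc values are of libraries 1 and 2. In shSc library 3 the sums were 9582 RPM for the K562 markers, 158 RPM for T and NK cells, 93.5 RPM for fibroblasts and 998 RPM for epithelium. In the 5 libraries 4 of the 8 T and NK cell markers stayed under 1 RPM, with LCK and KLRD1 at 0. The same held for 4 of 6 fibroblast markers and 2 of 6 epithelial markers.

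Blood cells take their lineage from a small set of DNA-binding proteins that activate the genes of 1 fate and hold back those of another. GATA1, with its partners TAL1, KLF1, NFE2 and GFI1B, drives erythroid and megakaryocytic genes, and GATA2 acts before it in stem and progenitor cells. PU.1, the product of SPI1, and C/EBPα, the product of CEBPA, drive myeloid genes, and PU.1 and GATA1 bind each other and block each other's activity. RUNX1 and MYB serve stem and progenitor cells of several lineages.

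None of the 10 factors passed the test across all genes, and the members that stood furthest apart between the groups were SPI1, which was lower, and GATA2, which was higher, in NPMKD cells. All 10 passed the filter on low values (a level of 1 RPM or more in 2 or more of the 5 retained libraries). In the limma fit on log2(RPM + 0.5) no member reached an adjusted p of 0.05, where 0.13% of the 11554 tested genes did (15 genes, of which 8, or 0.0692%, rose and 7, or 0.0606%, fell). At an unadjusted p under 0.05 there were 2 members, SPI1 and GATA2, against a background of 7.14% of all tested genes. The edgeR test on the recovered reads passed 0 members, with 2 at an unadjusted p under 0.05 (6.94% of genes), and 0.0952% of all genes passed. DESeq2 passed 1 member, SPI1, with 3 at an unadjusted p under 0.05, where 1.64% of all genes passed and 7.56% had an unadjusted p under 0.05.

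The groups did not overlap for 4 of the 10 members, where 22.8% of all tested genes did not overlap in these 5 libraries. GATA2, GFI1B and NFE2 were higher in every NPMKD library than in either shSc library, against 12.3% of genes, and SPI1 was lower, against 10.4% of genes. The same 4 members did not overlap once shSc replicate 3 was added, where 13.9% of genes did not (9.41% higher and 4.54% lower). In the limma fit of all 6 libraries 0 members passed, where 0.0256% of genes did, and 3 members, SPI1, GATA2 and GFI1B, had an unadjusted p under 0.05, where 6.83% of genes did. The median log2 fold change of the 10 members was 0.22, beside 0.0063 over all tested genes, with 6 members positive and 4 negative.

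**Figure D1:**
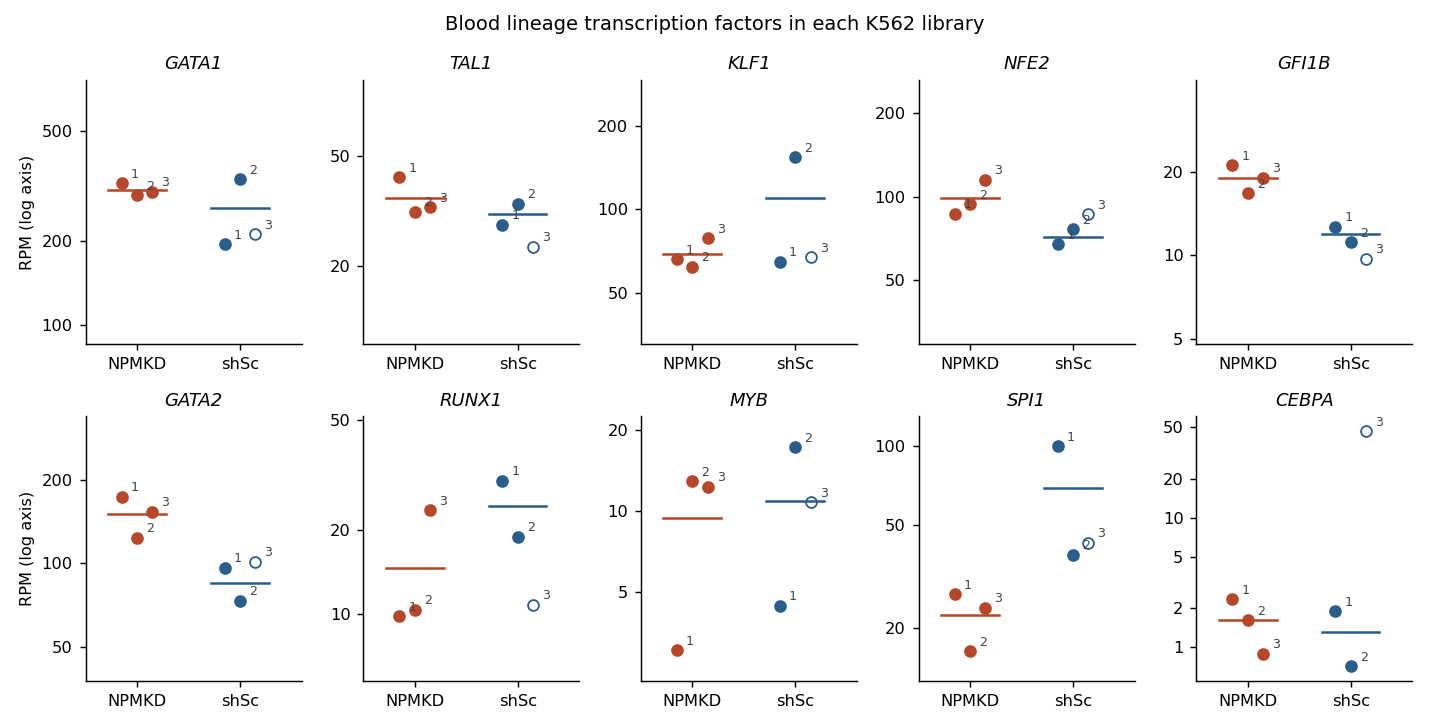
Level of each factor in each library, in RPM on a log axis that differs between panels; numbers mark the replicate, the open circle is shSc replicate 3, and lines are group means over NPMKD 1 to 3 and shSc 1 and 2. GATA2, GFI1B and NFE2 sit above, and SPI1 below, every shSc library, while CEBPA reaches 46.6 RPM only in shSc replicate 3.

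Among the erythroid factors, GATA1 itself (chrX:48644948-48652718, hg19, plus strand) is the zinc-finger activator of globin and red cell membrane genes. GATA1 had 325, 293 and 302 RPM in NPMKD libraries 1 to 3, against 195 and 335 RPM in shSc libraries 1 and 2 and 213 RPM in shSc library 3. The NPMKD libraries lay within 1.11-fold of each other, the shSc libraries 1 and 2 differed 1.72-fold, and the groups overlapped, with shSc library 2 above all others. It had a log2 fold change of 0.26 (SE 0.28, limma adjusted p 0.909), which was -0.13 without shSc replicate 1. The single amplicon does not separate full-length GATA1 from its short form.

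TAL1, the basic helix-loop-helix partner that joins GATA1 on DNA, lies at chr1:47681962-47697897 on the minus strand. Its level was 41.8, 31.4 and 32.6 RPM in NPMKD cells, against 28.1 and 33.5 RPM in shSc libraries 1 and 2 and 23.4 RPM in shSc library 3. The groups overlapped, since shSc library 2 exceeded 2 of the NPMKD libraries, and the log2 fold change was 0.19 (SE 0.27, limma adjusted p 0.925). Among all pairs of members, the centred log2 profiles of GATA1 and TAL1 over the 6 libraries were the closest (root mean square difference 0.18). Among all genes compared, ISOC2, DGKD and FAM49B were nearest to GATA1, at 0.07 to 0.09.

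KLF1, the zinc-finger activator of the adult β-globin gene and of heme synthesis genes, lies at chr19:12995236-12998015 on the minus strand. KLF1 had 66.3, 62.1 and 78.9 RPM in NPMKD cells, against 64.7 and 155 RPM in shSc libraries 1 and 2 and 67.2 RPM in shSc library 3. Library 2 of shSc stood alone above the remaining 5, which lay between 62.1 and 78.9 RPM. The log2 fold change of -0.54 (SE 0.37, limma adjusted p 0.843) turned to 0.087 without shSc replicate 2. PPOX, a heme synthesis gene, and SLC2A1, the glucose transporter gene, had the profiles nearest to that of KLF1 among 10854 genes compared, at a root mean square log2 difference of 0.10 and 0.13, before NFE2L1, also at 0.13. PPOX had 28.3, 26.8 and 33.1 RPM in NPMKD cells, against 27.7 and 54.6 RPM in shSc libraries 1 and 2 and 28.8 RPM in shSc library 3, with the same single high library.

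NFE2, the p45 subunit of the NF-E2 factor of erythroid and platelet genes, lies at chr12:54685895-54694799 on the minus strand. Its level was 87.0, 94.1 and 115 RPM in NPMKD cells, against 67.4 and 76.3 RPM in shSc libraries 1 and 2 and 86.7 RPM in shSc library 3. Every NPMKD library was above every shSc library, though NPMKD library 1 and shSc library 3 nearly met. NFE2 had a log2 fold change of 0.45 (SE 0.24, limma adjusted p 0.789).

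GFI1B, a zinc-finger repressor needed for red cell and platelet formation, lies at chr9:135819387-135867074 on the plus strand. GFI1B had 21.1, 16.7 and 19.1 RPM in NPMKD cells, against 12.7 and 11.2 RPM in shSc libraries 1 and 2 and 9.73 RPM in shSc library 3. The groups were apart with or without shSc library 3, and the spread within each group of the 5 was at most 1.26-fold. The ratio of means was 1.59 and the log2 fold change 0.64 (SE 0.29, limma unadjusted p 0.059, adjusted p 0.727). With all 6 libraries it was 0.74 (limma unadjusted p 0.028, adjusted p 0.679).

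GATA2 (chr3:128198270-128212044, minus strand) is the GATA factor of stem, progenitor and mast cells, which GATA1 replaces on DNA as red cells mature. GATA2 had 174, 124 and 153 RPM in NPMKD libraries 1 to 3, against 96.2 and 73.1 RPM in shSc libraries 1 and 2 and 101 RPM in shSc library 3. The lowest NPMKD library was above the highest shSc library, and means were 150.2 ± 25.2 RPM in NPMKD cells (SD, n = 3) and 84.7 ± 16.3 RPM in shSc cells (SD, n = 2). The log2 fold change was 0.82 (SE 0.26, limma unadjusted p 0.013, adjusted p 0.480) and ranked 957 by size among the 11554 tested genes. Over the 19 alternatives the log2 fold change of GATA2 stayed between 0.59 and 1.02, with adjusted p from 0.0096 to 0.999 by limma, edgeR or DESeq2. The lowest came from the limma fit of the 5 libraries with the replicate number as a block, whose estimate rested on replicates 1 and 2. BLOC1S2, TMEM97 and KIF4A had the profiles nearest to that of GATA2 (root mean square log2 difference 0.09 to 0.12), and among the members GFI1B was the nearest at 0.20.

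Promoter letters are shown for the erythroid factors and for GATA2 because these genes are known to be under the control of GATA factors or lie next to each other in profile. RefSeq promoter windows (GRCh38.p14) were held by 8 of the 10 members, and SPI1 and NFE2 had no entry. Of each window the 250 bases before the RefSeq start site are used, and their positions here come from an exact match to GRCh37. In the windows and sites printed here, capitals mark matches, on either strand, to the letters of 6 known motifs. GATA factors were searched as AGATAA with TGATAA as the second form. The core of PU.1 sites was searched as GAGGAA and the site known for KLF1 as CACACCC in every window. The letters for RUNX1 were TGTGGT and those for the NF-E2 factor were TGAGTCA in full. The helix-loop-helix box bound by TAL1 and its partners was searched as CAGATG only. No 2 matches overlapped in the windows shown. The minus strand is printed for TAL1, KLF1 and GATA2 and the plus strand for GFI1B and GATA1, each from 5′ to 3′. The windows of TAL1 (chr1:47698008-47698257), KLF1 (chr19:12998016-12998265) and GATA2 (chr3:128207374-128207623, the downstream of its 2 windows) are given whole, and the sites of GFI1B (chr9:135853956-135853979) and GATA1 (chrX:48644939-48644962) with 9 bases on each side.
TAL1: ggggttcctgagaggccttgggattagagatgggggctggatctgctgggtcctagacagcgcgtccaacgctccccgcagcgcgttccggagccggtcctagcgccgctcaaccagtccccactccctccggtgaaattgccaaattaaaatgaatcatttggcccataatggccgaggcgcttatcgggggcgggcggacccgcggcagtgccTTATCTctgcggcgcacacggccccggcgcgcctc
KLF1: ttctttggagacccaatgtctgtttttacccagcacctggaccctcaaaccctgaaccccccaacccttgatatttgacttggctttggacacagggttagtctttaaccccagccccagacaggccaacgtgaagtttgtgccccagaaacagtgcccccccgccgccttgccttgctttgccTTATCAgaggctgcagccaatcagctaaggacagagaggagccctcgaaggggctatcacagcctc
GATA2: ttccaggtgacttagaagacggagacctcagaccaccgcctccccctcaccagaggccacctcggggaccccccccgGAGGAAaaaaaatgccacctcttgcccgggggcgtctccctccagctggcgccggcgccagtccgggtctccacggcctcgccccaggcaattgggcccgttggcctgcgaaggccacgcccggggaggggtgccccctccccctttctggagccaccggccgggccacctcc
GFI1B: ggaaagtttTGATAAgcaaatacg
GATA1: ggagggaggGAGGAAgggagcctc
A GATA match began 35 bases before the start of TAL1, 66 before that of KLF1 and 116 before the second start of GFI1B, and 14.6% of all 35116 windows held 1. A PU.1-type match began 173 bases before the second start of GATA2 and 50 before that of GATA1, others lay in the window of RUNX1 and in both windows of GFI1B, and 23.6% of all windows held 1. By the GENCODE annotation on GRCh37 the transcribed part begins earlier for 2 of these genes: 15 of the 24 bases printed for GATA1 and all 24 of GFI1B lie in annotated exons, so these sites are not upstream of every annotated start. The KLF1 letters (6.63% of windows) were found in the other windows of TAL1 and GATA2, the RUNX1 letters (11% of windows) 3 times in the other window of TAL1, the TAL1 letters (12.2%) in both windows of GFI1B, and the NF-E2 letters (4.2%) in no member. These matches are letters only, and no binding was measured.

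SPI1 encodes PU.1, the ETS-family activator of myeloid genes, and lies at chr11:47376411-47400098 on the minus strand. SPI1 had 27.01, 16.3 and 23.9 RPM in NPMKD libraries 1 to 3, against 100.1 and 38.3 RPM in shSc libraries 1 and 2 and 42.5 RPM in shSc library 3. Every NPMKD library was below every shSc library, and shSc library 1 stood 2.61-fold above shSc library 2. Means were 22.4 ± 5.52 RPM in NPMKD cells (SD, n = 3) and 69.2 ± 43.7 RPM in shSc cells (SD, n = 2), a 3.09-fold lower mean. The log2 fold change was -1.48 (SE 0.44, limma unadjusted p 0.010, adjusted p 0.433) and ranked 246 by size among all tested genes.

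The SPI1 difference had a size that rested on shSc library 1. Its sign was the same in all 19 alternatives, but the groups did not overlap, so no choice of libraries could have turned it. Changing the filter or leaving out the variance trend left the estimate at -1.48 by construction. The log2 fold change was -0.79 without shSc replicate 1, -2.17 without shSc replicate 2 and -1.30 with all 6 libraries (adjusted p 0.587 by limma). Adjusted p was 0.269 by edgeR and 0.0236 by DESeq2, and over the alternatives it ran from 6.5e-05 to 0.9999. The lowest came from a limma fit of the 5 libraries with the replicate number as a block. In that fit NPMKD replicate 3 had no shSc library of its number, so the estimate rested on replicates 1 and 2. Less SPI1 RNA per cell and fewer cells with SPI1 RNA cannot be told apart in bulk RNA. Markers of monocytes and granulocytes summed to 0.342 to 1.16 RPM in NPMKD cells and 0.492 to 1.44 RPM in shSc libraries 1 and 2, with 7 of 8 under 1 RPM in these 5 libraries and FCN1 and S100A8 at 0, while shSc library 3 had 77.8 RPM. The 7 B cell markers, for a lineage that also uses PU.1, were all under 1 RPM in the 5 libraries, with MS4A1 and PAX5 at 0, while their sum in shSc library 3 was 81.8 RPM.

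Of 10854 genes compared, RAB20 and GALM had the profiles nearest to that of SPI1 over the 6 libraries, before CHML at 0.28 (root mean square log2 difference 0.21 each, where the SPI1 profile itself had a root mean square of 0.81). GALM, which encodes galactose mutarotase, had 40.6, 27.03 and 41.3 RPM in NPMKD cells, against 126 and 72.2 RPM in shSc libraries 1 and 2 and 54.9 RPM in shSc library 3. The nearest member to SPI1 was RUNX1 at 0.65.

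**Figure D2:**
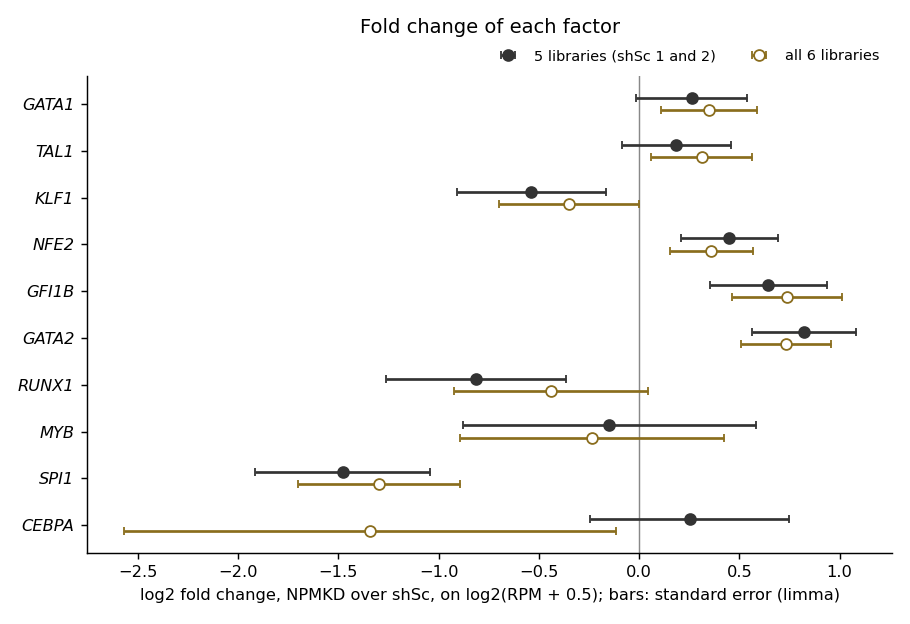
Log2 fold change of each factor, NPMKD over shSc, on log2(RPM + 0.5) from limma, with bars of 1 standard error; filled points use the 5 retained libraries and open points all 6. SPI1 is at -1.48 and -1.30 and GATA2 at 0.82 and 0.73, and CEBPA moves to -1.34 with all 6 libraries.

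CEBPA, which has a single exon, encodes the leucine-zipper factor of granulocyte development and lies at chr19:33790840-33793440 on the minus strand. CEBPA had 2.36, 1.62 and 0.90 RPM in NPMKD libraries 1 to 3, against 1.90 and 0.72 RPM in shSc libraries 1 and 2, and 46.6 RPM in shSc library 3. These values rest on 28, 19 and 17 reads in NPMKD cells, against 27 and 9 reads in shSc libraries 1 and 2 and 412 reads in shSc library 3. The 5 retained libraries overlapped, with a log2 fold change of 0.25 (SE 0.49, limma adjusted p 0.944), and with all 6 it was -1.34 (adjusted p 0.799 by limma).

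RUNX1 encodes the DNA-binding subunit of core-binding factor and spans chr21:36160098-37376965 on the minus strand in the annotation used. RUNX1 had 9.76, 10.3 and 23.5 RPM in NPMKD cells, against 30.1 and 18.9 RPM in shSc libraries 1 and 2 and 10.7 RPM in shSc library 3. The groups overlapped through NPMKD library 3, and shSc library 3 was near the lowest NPMKD libraries. Its log2 fold change was -0.81 (SE 0.45, limma adjusted p 0.804). It was -0.48 without shSc replicate 1, -1.21 without NPMKD replicate 3, -0.44 with all 6 libraries and -0.09 with shSc replicates 2 and 3. With the replicate number as a block, RUNX1 passed in the 5 libraries (limma adjusted p 0.0039), where the estimate rested on replicates 1 and 2, and not in all 6 (0.782). Its row carries 3 gene identifiers, so the RNA counted there may not be RUNX1 alone, and its isoforms are not separated.

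MYB, the activator of progenitor growth, lies at chr6:135502446-135540311 on the plus strand. MYB had 3.03, 12.9 and 12.3 RPM in NPMKD cells, against 4.44 and 17.2 RPM in shSc libraries 1 and 2 and 10.7 RPM in shSc library 3. In the 5 libraries the lowest of each group was the one numbered 1, the range within NPMKD was 4.25-fold and that between shSc libraries 1 and 2 was 3.88-fold, and the ratio of means was 0.867. MYB had a log2 fold change of -0.15 (SE 0.73, limma adjusted p 0.981).

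The SPI1-to-GATA ratio was lower in every NPMKD library than in every shSc library, with either GATA gene below the line. With GATA2 this follows from the values of both genes, since SPI1 was lower and GATA2 higher in each NPMKD library, and it is no separate result. Since each gene is read through its own amplicon, the ratio can be compared between libraries but does not give the relative amount of the RNAs. The SPI1-to-GATA1 ratio of RPM was 0.0831, 0.0555 and 0.0791 in NPMKD libraries 1 to 3, against 0.513 and 0.114 in shSc libraries 1 and 2 and 0.200 in shSc library 3. The SPI1-to-GATA2 ratio was 0.155, 0.132 and 0.156 in NPMKD libraries, against 1.04 and 0.523 in shSc libraries 1 and 2 and 0.420 in shSc library 3. The GATA2-based ratio was nearly the same in the 3 NPMKD libraries, with a gap to the lowest of the shSc libraries.

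On log2 of (RPM + 0.5), the SPI1-to-GATA1 ratio averaged -3.78 ± 0.31 in NPMKD cells (SD, n = 3) and -2.04 ± 1.52 in shSc cells (SD, n = 2), a difference of -1.74 or 3.34-fold. The SPI1-to-GATA2 ratio averaged -2.73 ± 0.13 in NPMKD cells and -0.43 ± 0.69 in shSc cells (SD, n = 3 and 2), a difference of -2.30 or 4.93-fold. Against the sum of GATA1 and GATA2 the difference was -1.88. The exact two-sided permutation test gave p = 0.2 for each ratio, the smallest value that 3 against 2 libraries allow, and p = 0.1 with all 6, the smallest for 3 against 3, where the differences were -1.65, -2.03 and -1.75. No p adjusted over the 3 ratios can therefore fall below 0.1. Without shSc replicate 1 the differences were -0.66, -1.81 and -0.95, and without shSc replicate 2 they were -2.82, -2.79 and -2.81.

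**Figure D3:**
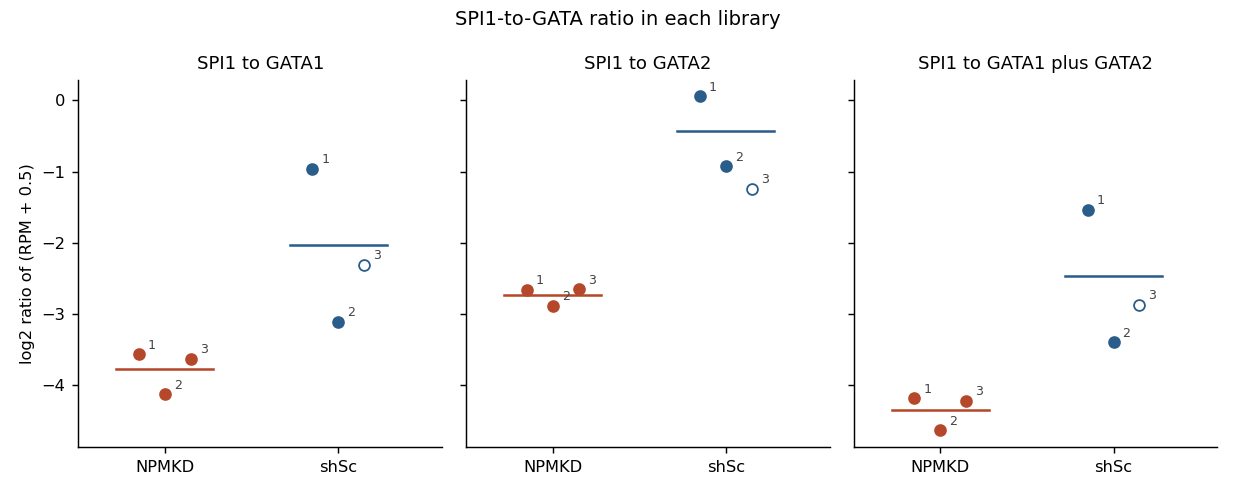
Log2 ratio of SPI1 to GATA1, to GATA2 and to their sum, of (RPM + 0.5), in each library; numbers mark the replicate, the open circle is shSc replicate 3, and lines are group means over NPMKD 1 to 3 and shSc 1 and 2. The NPMKD libraries lie below all shSc libraries in each panel, and shSc replicate 1 is the highest.

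Genes that work with or under the factors were taken from 8 lists, described by counts and medians without a test of the list. The lists were chosen with earlier results of these data known, and dependence of their genes on the factors was not measured. Partners and corepressors of GATA1 and TAL1 were spread narrowly around 0. Of 19 tested, 0 rose and 0 fell by limma, with a median log2 fold change of -0.11 and a range of -0.48 to 0.47. CBFA2T3, a TAL1-complex corepressor, had 269.8, 186 and 133.5 RPM in NPMKD cells, against 186 and 151 RPM in shSc libraries 1 and 2 and 130.4 RPM in shSc library 3, so the groups overlapped. The deacetylase gene HDAC1 averaged 192 RPM in NPMKD cells and 198 RPM in shSc cells.

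Of 8 NF-E2 partners and related CNC-BACH factors, 6 were tested and none passed (median 0.11). NFE2L2, the regulator of the oxidative stress response, had 139.6, 137 and 84.2 RPM in NPMKD cells, against 161 and 46.0 RPM in shSc libraries 1 and 2 and 56.8 RPM in shSc library 3, with shSc library 1 the highest and overlap between the groups. NFE2L1, a relative of NFE2, had 70.0, 81.7 and 92.9 RPM in NPMKD cells, against 81.3 and 155.5 RPM in shSc libraries 1 and 2 and 75.3 RPM in shSc library 3, with shSc library 2 alone as for KLF1. Of 25 paralogs of the members, 19 were tested and none passed (median 0.09). The most abundant paralogs overlapped between the groups. MYBL2, a cell cycle relative of MYB, had 242, 199 and 169 RPM in NPMKD cells, against 286 and 201 RPM in shSc libraries 1 and 2 and 158 RPM in shSc library 3 (log2 fold change -0.25). LYL1, a close relative of TAL1, had 171, 129 and 99.2 RPM in NPMKD cells, against 196 and 149 RPM in shSc libraries 1 and 2 and 117 RPM in shSc library 3 (log2 fold change -0.40). GFI1, the myeloid relative of GFI1B, was named after its values were seen and had the lowest fold change of the list, with 2.36, 1.96 and 4.64 RPM in NPMKD cells, against 10.6 and 5.74 RPM in shSc libraries 1 and 2 and 4.41 RPM in shSc library 3. It was lower in NPMKD cells in the 5 libraries, with a log2 fold change of -1.34 (limma adjusted p 0.574), and overlapped once shSc library 3 was added. The highest of the list was TAL2, also named after its values were seen, at 1.02. In the 5 libraries 4 of the 19 paralogs (21.1%) were higher without overlap and 3 (15.8%) were lower. Of all tested genes 12.3% were higher and 10.4% lower in this way.

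Other blood transcription factors were 34, of which 20 were tested and none passed, with a median of -0.06. MYC averaged 471 ± 93.1 RPM in NPMKD cells and 566 ± 191 RPM in shSc cells (SD, n = 3 and 2), and STAT5A averaged 351 ± 88.5 RPM in NPMKD cells and 379 ± 45.0 RPM in shSc cells. ID2, an inhibitor of helix-loop-helix factors chosen here after its values were seen, had 8.92, 6.82 and 6.74 RPM in NPMKD cells, against 4.44 and 1.91 RPM in shSc libraries 1 and 2 and 3.17 RPM in shSc library 3, with no overlap and a log2 fold change of 1.20 (limma adjusted p 0.573).

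Erythroid genes driven by GATA1, TAL1 and KLF1 had a median close to that of all genes. Of 44 listed, 39 were tested, 0 rose and 0 fell by limma, 20 were positive and 19 negative, and the median was 0.01. The γ-globin gene HBG2 had 4616, 3784 and 7598 RPM in NPMKD cells, against 5141 and 7617 RPM in shSc libraries 1 and 2 and 3942 RPM in shSc library 3, and HBG1, a near-identical copy whose reads may be shared with it, had a log2 fold change of -0.28. The groups did not overlap for 8 erythroid genes in the 5 libraries, 3 higher (7.69% of the list) and 5 lower (12.8%). These shares are to be read beside 12.3% and 10.4% of all genes. With all 6 libraries 3 of the 39 were higher and 1 was lower, where 9.41% and 4.54% of all genes were. The transferrin receptor gene TFRC, named after its values were seen, had 359, 421 and 579 RPM in NPMKD cells. It had 677 and 1053 RPM in shSc libraries 1 and 2, but 439 RPM in shSc library 3, so that the groups overlapped with all 6. BCL2L1, named in the same way, was higher in each NPMKD library. It had 312, 332 and 266 RPM in NPMKD cells, against 194, 212 and 173 RPM in shSc libraries 1 to 3.

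The myeloid genes listed under PU.1 and C/EBPα were mostly lower in NPMKD cells, and whether they depend on either factor here was not tested. Of 35 listed, 21 were tested, and by limma 0 rose and 1 fell, SIRPA, while 20 of the 21 fold changes were negative and the median was -1.21, beside 0.0063 for all genes. For 12 of the 21 (57.1%) every NPMKD library was below both shSc libraries, where 10.4% of all genes were, and the other 14 listed genes were too low to test. Since the list was chosen with earlier results of these data known, these shares describe the list and do not test it. Of the 21 genes, 3, SIRPA among them, reached 1 RPM in no NPMKD library and so were tested through shSc alone. The 11 genes with a mean of at least 5 RPM over the 5 libraries were therefore also taken: their median was -1.21, all 11 were negative and 6 were without overlap. Of all genes over that mean 9.98% were lower without overlap, and the median of all these genes was 0.0064. With all 6 libraries 22 genes of the list were tested, their median was -1.0 beside 0.035 for all genes, and 11 were lower without overlap, where 4.54% of all genes were. Without the filter on low values, which lets the unexpressed genes of the list in, the median was -0.52.

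SIRPA, which encodes the inhibitory receptor of macrophages that binds CD47, had 0.421, 0.256 and 0.316 RPM in NPMKD cells, against 9.52 and 7.50 RPM in shSc libraries 1 and 2 and 10.9 RPM in shSc library 3, a log2 fold change of -3.43 (SE 0.38, limma adjusted p 0.026). Its NPMKD values were close to the level that 0 reads still allow in those libraries, 0.158 to 0.256 RPM. SIRPA thus met the filter of 1 RPM only through shSc, and with a filter of 5 RPM it did not pass (limma adjusted p 0.088). SIRPA passed in 9 of 19 alternatives, with limma adjusted p up to 0.309. Its fold change was negative in all 19, which the lack of overlap between the groups fixes for any choice of libraries. SIRPA passed with all 6 libraries (limma adjusted p 0.049) but in none of the fits that left out 1 of the 5 libraries. LAPTM5, a lysosomal membrane protein gene of blood cells and the most abundant of the list, had 441, 462 and 466 RPM in NPMKD cells, against 1209 and 1106 RPM in shSc libraries 1 and 2 and 641 RPM in shSc library 3. LAPTM5 was lower in each NPMKD library, with shSc library 3 nearest to them, and its log2 fold change was -1.34 (SE 0.22, limma adjusted p 0.094). CYBA, the p22-phox subunit of the phagocyte oxidase, overlapped between the groups at 222, 190 and 145 RPM in NPMKD cells, against 211 and 330 RPM in shSc libraries 1 and 2.

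Further genes of the list were named after their values were seen, as was ITGA2B below. TYROBP, the signaling adaptor DAP12, had 3.28, 5.46 and 6.90 RPM in NPMKD cells, against 36.4 and 32.9 RPM in shSc libraries 1 and 2 and 23.98 RPM in shSc library 3 (log2 fold change -2.67, limma adjusted p 0.057). AIF1, a macrophage calcium-binding protein gene, had 6.48, 7.50 and 6.11 RPM in NPMKD cells, against 27.2 and 39.8 RPM in shSc libraries 1 and 2 and 25.7 RPM in shSc library 3 (log2 fold change -2.22, limma adjusted p 0.067). ITGAM, the integrin CD11b, had 0.841, 0.853 and 5.06 RPM in NPMKD cells, against 16.6 and 11.3 RPM in shSc libraries 1 and 2 and 16.9 RPM in shSc library 3, with NPMKD library 3 well above the other NPMKD libraries. Other genes of the list overlapped between the groups, such as BTK, the tyrosine kinase gene, with 42.3, 43.3 and 50.5 RPM in NPMKD cells, against 41.8 and 56.5 RPM in shSc libraries 1 and 2.

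**Figure D4:**
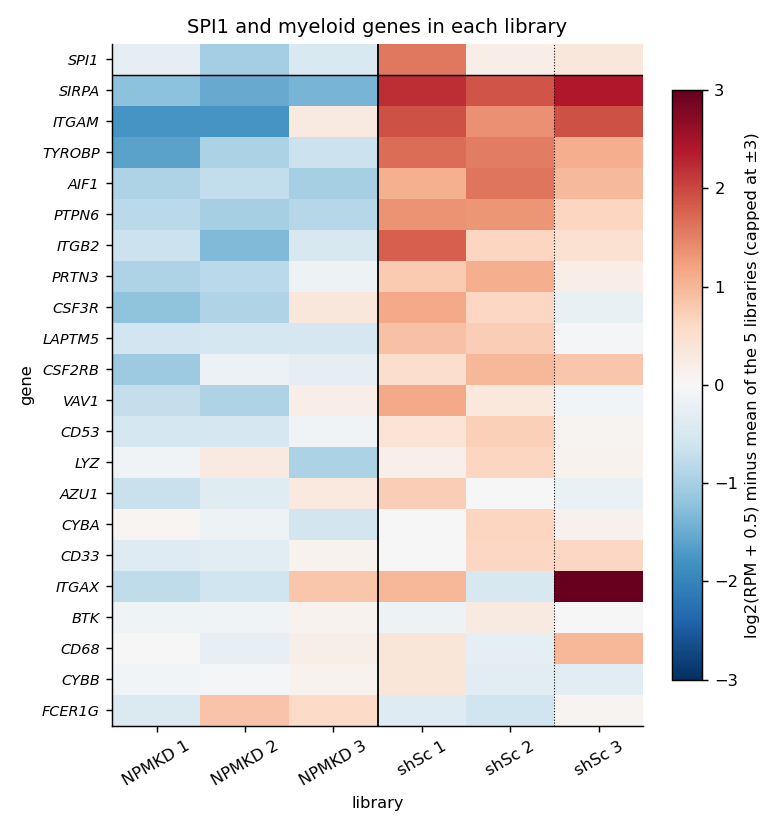
SPI1 and the 21 tested myeloid genes in each library, as log2(RPM + 0.5) minus the mean of the 5 retained libraries, with the color scale capped at 3 in each direction; rows run from the most negative to the most positive fold change. SIRPA, TYROBP, AIF1 and PTPN6 are low in the 3 NPMKD libraries and high in the 3 shSc libraries, while BTK, CD68 and CYBB overlap between the groups.

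Of 18 megakaryocyte genes associated with GATA1, RUNX1 and NF-E2, 8 were tested, 1 rose and 0 fell by limma, and the median log2 fold change was 1.29. SRGN, the proteoglycan gene serglycin of platelet, mast cell and myeloid granules, rose to 73.2, 72.8 and 112 RPM in NPMKD cells, against 3.45 and 3.75 RPM in shSc libraries 1 and 2 and 17.2 RPM in shSc library 3 (log2 fold change 4.37, SE 0.31, limma adjusted p 0.0086). The call of SRGN ended with all 6 libraries (log2 fold change 3.67, limma adjusted p 0.131) and in 5 other of 19 alternatives, among them those without shSc replicate 1 (0.0885) and without shSc replicate 2 (0.0739), while the log2 fold change was at least 3.29 in all 19. For 4 of the 8 (50%) every NPMKD library was above both shSc libraries, where 12.3% of all genes were, and 0 were lower. Since 3 of the 8 reached 1 RPM in no shSc library, the number tested, the median and this share lean on genes tested through NPMKD alone. Only 3 of the 8 had a mean of at least 5 RPM. The median was 0.48 without the filter, 1.71 with a pseudocount of 0.1 RPM and 1.96 by edgeR. ITGA2B, which encodes the platelet integrin subunit CD41, had 3.62, 3.16 and 5.22 RPM in NPMKD cells. It had 3.74 and 4.79 RPM in shSc libraries 1 and 2 and 1.70 RPM in shSc library 3, so the groups overlapped. ITGA2B was 1 of the 2 tested genes of the list with a negative fold change, and 6 were positive. Its log2 fold change was -0.10, and 0.27 with all 6 libraries. The thrombin receptor gene F2R had 22.7, 20.9 and 13.2 RPM in NPMKD cells, against 17.2 and 10.1 RPM in shSc libraries 1 and 2.

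Of 13 genes associated with GATA2 in progenitors and mast cells, 4 were tested and none passed. The eosinophil and mast cell granule gene PRG2 had 2.95, 2.39 and 9.48 RPM in NPMKD cells, against 74.0 and 26.96 RPM in shSc libraries 1 and 2 and 21.1 RPM in shSc library 3, a log2 fold change of -3.29 (SE 0.63, limma adjusted p 0.145). PRG2 was lower in each NPMKD library, while GATA2 itself was higher, and of the 4 genes tested 2 had a positive and 2 a negative fold change. ENPP3, a surface enzyme gene of mast cells and basophils, had 3.62, 3.24 and 24.8 RPM in NPMKD cells, against 4.58 and 5.66 RPM in shSc libraries 1 and 2 and 6.33 RPM in shSc library 3, with NPMKD library 3 alone above the rest and a log2 fold change of 0.38 (SE 0.79, limma adjusted p 0.948).

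**Figure D5:**
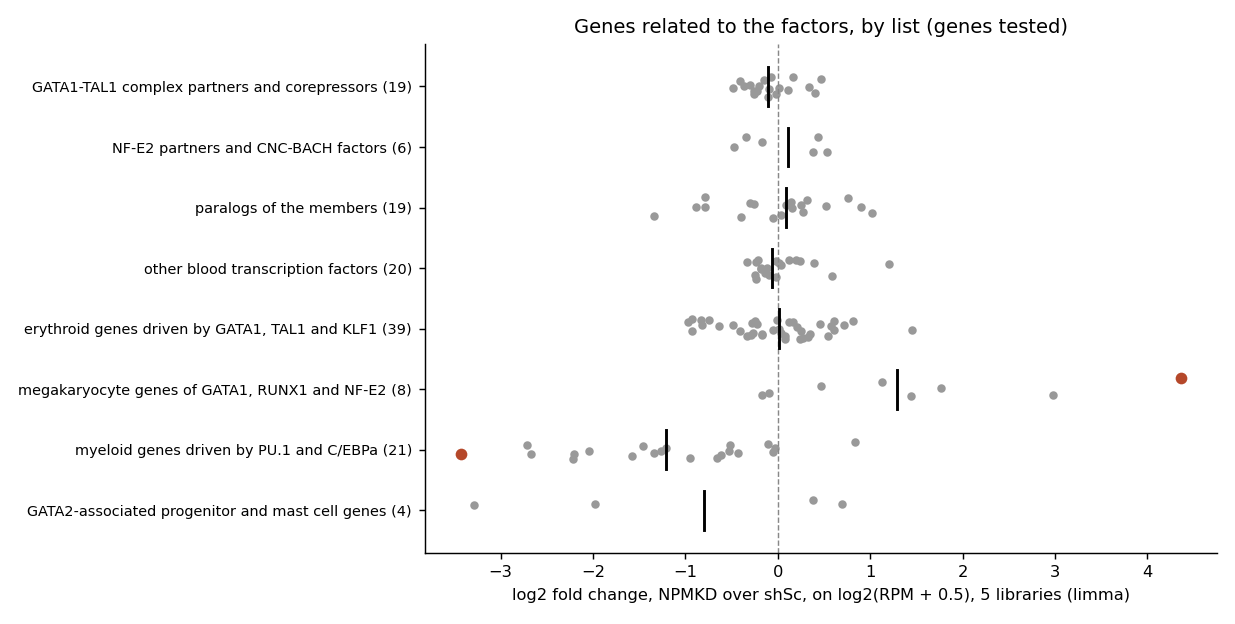
Log2 fold change, NPMKD over shSc, on log2(RPM + 0.5) from limma over the 5 retained libraries, for each tested gene of the 8 lists; black bars are list medians, the dashed line is the median of all tested genes, and large red points passed an adjusted p of 0.05. The myeloid list has its median at -1.21 with SIRPA at -3.43, the megakaryocyte list at 1.29 with SRGN at 4.37, and the erythroid list at 0.01.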

How the data were processed

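RNA of K562 cells was pretreated with DNase and made into AmpliSeq transcriptome libraries sequenced on an Ion Proton. The study's methods name Torrent Suite 4.4 for base calling and alignment to hg19. The deposited values, in RPM, scale the reads of a gene to a common library total; the authors' AmpliSeqRNA plugin computed them from reads on 1 amplicon per gene. 100% of the values were whole reads within 0.1 read once multiplied by the read value of their library. 10 spike-in entries, all at 0 RPM, were left out.

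Groups came from the sample labels. The main test was limma (version 3.58.1, under R 4.3.3), with a variance trend and a pseudocount of 0.5 RPM before taking log2, over genes that reached 1 RPM in 2 or more of 5 libraries, with Benjamini-Hochberg adjustment at 0.05 over all genes tested. Fold changes on this scale understate those of low genes. Count tests on the recovered reads were edgeR 4.0.16 (11 genes passed) and DESeq2 1.42.0 (190 genes). Ratios were compared with exact permutation tests over libraries in SciPy 1.17.1. A count of 3 reads, taken as the upper limit that 0 reads allow, corresponds to 0.158 to 0.339 RPM. No libraries were copies of each other (chi-square per gene 41.2 to 228). Counting intervals cover counting error only, since reads carry no molecular identifiers.

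The members and lists were chosen with earlier results of these data known. Named genes were the members, NPM1, up to 4 genes passing and the 2 most abundant of each list, and the 3 nearest profiles (mean of at least 5 RPM) of SPI1, GATA1, GATA2 and KLF1; others are stated as chosen with their values known. Alternatives were other sets of shSc libraries, pseudocounts, filters, normalizations, a replicate block and leaving out each library.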

Additional observations from a re-analysis of the deposited data

Results flagged for a closer look

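CEBPA in shSc replicate 3, a library outside the tests, had 46.6 RPM (412 reads, exact Poisson 95% interval 42.2 to 51.3 RPM), against 0.72 to 2.36 RPM in the other 5 libraries. Its antisense neighbor CEBPA-AS1 had 0.168, 0.171 and 0.369 RPM in NPMKD libraries 1 to 3, against 0.211 and 0.239 RPM in shSc libraries 1 and 2 and 108.7 RPM in shSc library 3. Among genes under 5 RPM in the other 5 libraries, 542 of 575 with a single exon (94.3%) reached at least 10 RPM in shSc replicate 3, against 707 of 7647 with several exons (9.25%). Their part in the CEBPA value was not tested.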

How the results depend on the processing

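Beside DESeq2 (1 member, SPI1) and the replicate block with 5 libraries (3 members), no alternative passed any member. The count of genes that passed, 15, was 3 with all 6 libraries, 0 with shSc replicates 1 and 3 and with shSc replicates 2 and 3, 2 without a filter, 7 with a filter of 5 RPM, 26 after quantile normalization and 190 by DESeq2, and leaving out 1 library gave 0 to 5. Same-numbered libraries deviated together for numbers 1 and 2 (correlations of deviations 0.43 and 0.308) but not 3 (0.0406), and NPMKD replicate 3 correlated best with shSc replicate 2 (0.0779), so the numbers were not taken as pairs. The replicate block gave 1698 genes with 5 libraries (703 rose, 995 fell) and 3 members (SPI1 -1.54, GATA2 0.80, RUNX1 -1.21), and with all 6 it gave 0 genes and 0 members. Among the 5 libraries NPMKD replicate 3 has no shSc library of its number, so the estimates of that block fit rest on replicates 1 and 2. The CEBPA log2 fold change reversed to -1.34 with all 6 libraries, with or without the replicate block, to -2.38 with shSc replicates 1 and 3 and to -1.89 with shSc replicates 2 and 3, and the value of shSc replicate 3 shows the cause. With shSc replicates 1 and 3, KLF1 was 0.060 and MYB 0.18. Leaving out 1 library gave ranges of -0.13 to 0.65 for GATA1, -1.16 to 0.087 for KLF1, -0.24 to 0.74 for CEBPA, -1.07 to 0.77 for MYB and -1.21 to -0.48 for RUNX1. For the other reversals and counts the cause was not tested. Of 189 member fold changes, 174 kept sign and call. The 3 ratios kept their sign in all 33 alternatives, which the lack of overlap between the groups fixes for any choice of libraries. Library scaling cancels within a ratio, so normalization could hardly move it. The median of all genes moved by at most 0.08. Precision is limited by 2 shSc libraries and, for CEBPA, by 9 to 28 reads.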

Other observations

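Of the 10 factors, 6 carry a cancer gene census mark in the annotation columns of the deposited tables, against 451 of all 20802 genes (2.17%). The KLF1-to-GATA1 ratio of RPM, computed after the values were seen, was 0.204, 0.212 and 0.261 in NPMKD libraries 1 to 3, against 0.332 and 0.462 in shSc libraries 1 and 2 and 0.316 in shSc library 3. It was lower in each NPMKD library, by 0.80 on the log2 scale (exact two-sided permutation p = 0.2, the smallest that 3 against 2 libraries allow). The GATA2-to-GATA1 ratio overlapped between the groups.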
